A study of Mus musculus with 24 samples.

Results

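The 33 genes described here make, regulate and move cholesterol and make fatty acids. They were taken by symbol from a named list, and all 33 were found among the 24421 symbols of the RNA-seq count table and the 24411 of the MeRIP-seq count table. All 33 also passed the filter on low counts, which left 13291 genes for testing in RNA-seq and 14705 in MeRIP-seq. By role, 7 genes belong to the mevalonate arm (Acat2, Hmgcs1, Mvk, Pmvk, Mvd, Idi1 and Fdps) and 11 to the steps that lead through squalene to cholesterol (Fdft1, Sqle, Lss, Cyp51, Tm7sf2, Msmo1, Nsdhl, Hsd17b7, Ebp, Sc5d and Dhcr7). The other groups were 5 genes of the SREBP control circuit (Srebf1, Srebf2, Scap, Insig1 and Insig2), 4 of sterol transport and export (Star, Stard4, Abca1 and Abcg1) and 6 of fatty acid synthesis and desaturation (Fasn, Elovl6, Scd1, Scd2, Fads1 and Fads2).

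The tissue was lumbar (L4/5) dorsal root ganglia (DRG) of C57BL/6 mice, the ganglia that hold the cell bodies of the sensory neurons of the sciatic nerve. RNA-seq covered 12 libraries in 4 groups of 3: Mettl14 knockout 1 day after sciatic nerve lesion (Mettl14cKO SNLD1), Mettl14 knockout without lesion (Mettl14cKO naive), wild type 1 day after lesion (WT SNLD1) and wild type without lesion (WT naive). Mettl14 encodes a core subunit of the enzyme complex that writes N6-methyladenosine (m6A) in mRNA. The genotype is given as Mettl14-/-, and the labels used here give no Cre driver, cell type of deletion, age or sex. The control libraries are titled naive, although the treatment field of every library reads sham or nerve crush. MeRIP-seq, in which RNA pulled down with an m6A antibody (IP) is counted beside unselected RNA (input), covered 3 IP and 2 input libraries at SNLD1 and 3 IP and 2 input libraries in naive mice, all wild type. miCLIP, which maps m6A to single bases through mutations left by the crosslinked antibody, gave 1 list of sites after lesion (titled SNL, with no day) and 1 from naive mice, both wild type.

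Cholesterol is built from acetyl-CoA. The mevalonate arm makes farnesyl diphosphate, squalene synthase and squalene epoxidase commit it to sterols, and a chain of demethylases, reductases and isomerases turns lanosterol into cholesterol. When membrane sterol is low, SCAP carries the SREBP proteins from the endoplasmic reticulum to the Golgi, where they are cut to release transcription factors that act on most genes of the pathway. INSIG proteins hold SCAP back when sterol is high. Sterol excess is sensed by LXR receptors, which act on the exporters Abca1 and Abcg1 and on Srebf1. In peripheral ganglia, cholesterol and fatty acids are the stuff of neuronal membranes and of the myelin of Schwann cells.

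The RNA-seq libraries held between 5707837 and 12639160 counts, and levels are given in CPM, counts relative to the library total after TMM (trimmed mean of M-values) scaling. Mettl14 itself stood at 14.2, 16.9 and 15.6 CPM in the Mettl14cKO SNLD1 libraries and 14.2, 18.9 and 15.02 in the Mettl14cKO naive ones, against 20.1, 20.7 and 19.4 in the WT SNLD1 and 23.3, 22.9 and 24.1 in the WT naive ones. Every knockout library lay below every wild-type library, and counts over the whole gene do not separate a deleted stretch from the rest of the transcript. The 18 sensory neuron markers summed to between 15543 and 17510 CPM in the 6 Mettl14cKO libraries and between 17715 and 19753 CPM in the 6 WT libraries, so these markers were abundant in every library and the genotypes did not overlap. Sums of 10 adipocyte markers reached 110 and 184 CPM in Mettl14cKO SNLD1 libraries 1 and 3, against 5.21 to 21.4 CPM in the other 10. Of these markers, Plin1 and Lep were at or near 0 in every library. Sums of 7 neutrophil markers reached 1631 CPM in WT SNLD1 library 2 and 1418 CPM in WT naive library 2. Counts of members called are also given without these libraries. Leaving out Mettl14cKO SNLD1 libraries 1 and 3 keeps 1 library of that group, which is then assumed to vary like the other groups. Whether libraries of a group came from separate animals is not stated, so a p-value here reflects library-to-library spread, which may be technical. In bulk ganglia, fewer cells of a type and less RNA per cell cannot be told apart.

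To show the DNA in front of these genes, promoter sequence (the 250 bases before the start, RefSeq, GRCm38.p6) was read for the genes that had an entry. Of the 33 genes, 24 matched the promoter table and 9 (Abcg1, Sqle, Stard4, Scd2, Scd1, Fads1, Fdft1, Star and Fdps) did not. Some genes had several annotated starts, giving 32 windows for the 24 genes. A gene was counted for a motif if any of its windows held it, here and over all tested genes. The windows were searched on both strands for a sterol regulatory element (TCACNCCAC), the E-box CACGTG that SREBP proteins can also bind, the CCAAT box and the GC box GGGCGG. In the windows printed below no capitalised match overlaps another. In all, 5 windows are printed, for Hmgcs1 and for the synthesis genes Idi1, Cyp51, Hsd17b7 and Sc5d that were higher after lesion. Hmgcs1 was not called with lesion or genotype in the main fit, and was the only gene whose window held a sterol regulatory element. Capitals mark a sterol regulatory element, an E-box or a CCAAT box (ATTGG on the other strand), and GC boxes are left in lower case.
Hmgcs1, chr13:119690101-119690350 (plus strand): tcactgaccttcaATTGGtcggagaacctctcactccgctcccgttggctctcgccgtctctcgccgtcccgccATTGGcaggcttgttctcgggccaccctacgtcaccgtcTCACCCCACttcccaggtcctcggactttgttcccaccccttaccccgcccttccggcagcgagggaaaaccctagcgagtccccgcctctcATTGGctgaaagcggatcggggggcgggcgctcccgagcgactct
Idi1, chr13:8885356-8885605 (plus strand): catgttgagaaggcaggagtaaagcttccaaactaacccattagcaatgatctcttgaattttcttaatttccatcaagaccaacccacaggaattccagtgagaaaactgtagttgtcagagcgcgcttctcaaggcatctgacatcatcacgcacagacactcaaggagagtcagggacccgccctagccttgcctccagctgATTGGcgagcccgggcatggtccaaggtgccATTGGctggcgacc
Cyp51, chr5:4104698-4104947 (minus strand): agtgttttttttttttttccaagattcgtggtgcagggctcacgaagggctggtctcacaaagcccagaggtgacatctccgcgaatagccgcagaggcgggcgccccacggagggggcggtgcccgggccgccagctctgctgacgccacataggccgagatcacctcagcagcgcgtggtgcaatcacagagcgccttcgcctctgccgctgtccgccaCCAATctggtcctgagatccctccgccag
Hsd17b7, chr1:169969206-169969455 (minus strand): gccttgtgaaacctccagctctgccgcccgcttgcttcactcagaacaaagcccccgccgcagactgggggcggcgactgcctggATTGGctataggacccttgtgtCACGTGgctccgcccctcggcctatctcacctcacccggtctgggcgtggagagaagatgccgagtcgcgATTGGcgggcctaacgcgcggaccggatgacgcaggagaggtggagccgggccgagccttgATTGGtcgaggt
Sc5d, chr9:42264301-42264550 (minus strand): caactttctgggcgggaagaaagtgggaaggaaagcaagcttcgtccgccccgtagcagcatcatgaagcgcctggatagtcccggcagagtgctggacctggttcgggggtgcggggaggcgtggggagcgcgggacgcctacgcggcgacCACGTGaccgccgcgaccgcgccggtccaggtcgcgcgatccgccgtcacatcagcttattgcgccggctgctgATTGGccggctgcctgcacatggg
The window of Hmgcs1 held the sterol regulatory element, starting 137 bases before the start, and CCAAT boxes at 237, 176 and 45. Idi1 had CCAAT boxes at 45 and 14 and Cyp51 had 1 at 29. Hsd17b7 had the E-box at 143 and CCAAT boxes at 165, 73 and 12, and Sc5d had the E-box at 98 and a CCAAT box at 24. Over the 24 genes, a sterol regulatory element of these letters stood in 1 (4.17%, against 1.26% of the 10100 tested genes with a window), an E-box in 6 (25.0%, against 9.62%), a CCAAT box in 19 (79.2%, against 40.5%) and a GC box in 21 (87.5%, against 61.8%). The 6 genes with an E-box were Abca1, Dhcr7, Hsd17b7, Insig1, Sc5d and Scap. Abca1 and Elovl6 were also called in an RNA-seq comparison and had a window that is not printed. That of Abca1 held no CCAAT box, and that of Elovl6 held none of these motifs. A match describes the letters only, and says nothing of binding.

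The first question was which of these genes differed 1 day after lesion. Taking the mean of both genotypes, 6 of the 33 genes rose and 1 fell, and most of the others lay above 0. The genes that rose were Star and Stard4, which carry cholesterol inside the cell, and Hsd17b7, Idi1, Sc5d and Cyp51, enzymes of cholesterol synthesis. The gene that fell was Abcg1, a cholesterol exporter. Calls are at an adjusted p under 0.05 by edgeR's quasi-likelihood test with Benjamini-Hochberg adjustment over all 13291 genes, of which 2.02% were called higher and 0.542% lower. At an unadjusted p under 0.05, 14 members were higher and 1 lower, against 6.73% and 6.22% of all genes. In all, 27 of 33 members lay above 0 (48.8% of all genes did), and the member median log2 difference was 0.24 against -0.01 over all genes. The 7 mevalonate genes and the 11 genes from squalene to cholesterol all lay above 0, with medians of 0.26 and 0.34, while the SREBP control and fatty acid groups had medians of 0.08 and 0.09. Markers of other cell types had medians over both genotypes of 0.42 for 11 macrophage markers (8 above 0), 0.59 for 7 neutrophil markers (7 above 0) and 0.43 for the 5 of 8 skeletal muscle markers that were tested (5 above 0), and none of these genes was called. Lists of neurons and glia did not rise in this way. In Mettl14cKO and WT, medians were 0.03 and -0.28 for 12 myelinating Schwann cell markers and -0.20 and -0.08 for 11 satellite glia markers. For 18 sensory neuron markers they were -0.02 and -0.04. The part of these cell types in the result was not tested.

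Idi1, the isomerase that makes dimethylallyl diphosphate, stood at 575, 587 and 574 CPM in the Mettl14cKO SNLD1 libraries, 459, 409.6 and 406 in the Mettl14cKO naive ones, 719, 812 and 689 in the WT SNLD1 ones and 527, 562 and 388 in the WT naive ones. Every lesioned library lay above every unlesioned library of its genotype. The log2 difference over both genotypes was 0.52 (SE 0.11, 1.43-fold, edgeR quasi-likelihood adjusted p 0.0117 with Benjamini-Hochberg adjustment), and the group means were 579 ± 6.93 in Mettl14cKO SNLD1, 425 ± 29.8 in Mettl14cKO naive, 740.0 ± 63.9 in WT SNLD1 and 492 ± 92.3 in WT naive (SD, n = 3 each). Cyp51, the lanosterol demethylase, stood at 171, 185 and 178 CPM in the Mettl14cKO SNLD1 libraries, 126, 130.1 and 120.2 in the Mettl14cKO naive ones, 203, 269 and 259 in the WT SNLD1 ones and 203, 191 and 159 in the WT naive ones. Its lesioned libraries likewise lay above all unlesioned ones of the same genotype. In WT the margin was narrow, with SNLD1 library 1 at 202.66 CPM and naive library 1 at 202.53 CPM. Cyp51 differed by 0.45 over both genotypes (SE 0.11, 1.37-fold, edgeR quasi-likelihood adjusted p 0.0243). Sc5d, a late desaturase of the sterol ring, stood at 722, 771 and 742 CPM in the Mettl14cKO SNLD1 libraries, 548, 556 and 503 in the Mettl14cKO naive ones, 796, 917 and 784 in the WT SNLD1 ones and 603, 706 and 484 in the WT naive ones, again with no overlap within a genotype. Its log2 difference was 0.48 (SE 0.11, 1.39-fold, adjusted p 0.0192).

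Hsd17b7, a ketosteroid reductase of the pathway, stood at 160.2, 119.9 and 187 CPM in the Mettl14cKO SNLD1 libraries, 85.6, 112 and 109.6 in the Mettl14cKO naive ones, 198, 190.2 and 258 in the WT SNLD1 ones and 112, 115 and 99.9 in the WT naive ones. The groups did not overlap in either genotype, and the difference over both was 0.80 (SE 0.13, 1.74-fold, adjusted p 0.00135 by edgeR's quasi-likelihood test with Benjamini-Hochberg adjustment). Sqle, squalene epoxidase, stood at 291, 286 and 344 CPM in the Mettl14cKO SNLD1 libraries, 248, 206 and 258 in the Mettl14cKO naive ones, 435, 332 and 533 in the WT SNLD1 ones and 362, 289 and 340.2 in the WT naive ones. The Mettl14cKO groups did not overlap, but a WT SNLD1 library lay below the highest WT naive one, and the difference of 0.38 (SE 0.12, adjusted p 0.13) did not pass. Lss, which closes squalene epoxide into lanosterol, stood at 31.3, 29.9 and 33.1 CPM in the Mettl14cKO SNLD1 libraries, 23.8, 17.3 and 20.7 in the Mettl14cKO naive ones, 21.6, 30.5 and 23.7 in the WT SNLD1 ones and 17.1, 27.8 and 21.1 in the WT naive ones, with no overlap of the groups in Mettl14cKO and an overlap in WT. Its difference was 0.41 (adjusted p 0.18).

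**Figure D1:**
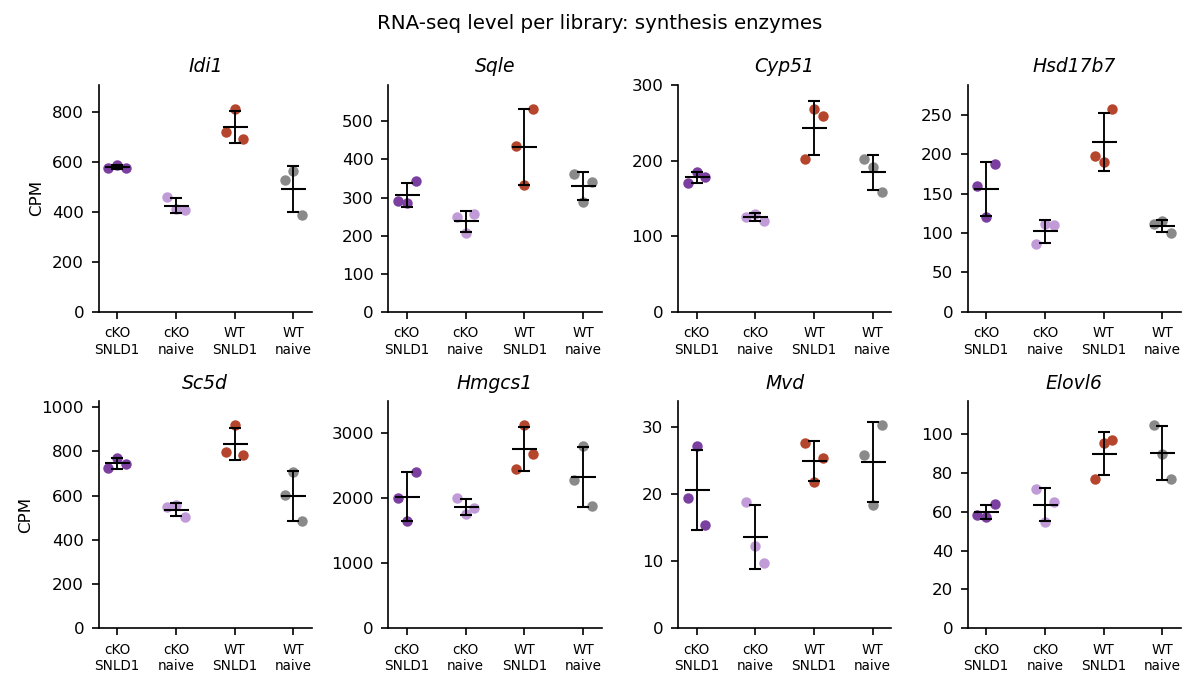
Level in CPM (vertical axes, linear and starting at 0) of 8 synthesis genes in each RNA-seq library, with groups from left to right Mettl14cKO SNLD1, Mettl14cKO naive, WT SNLD1 and WT naive; points are libraries and bars the mean ± SD (n = 3). Idi1, Cyp51, Hsd17b7 and Sc5d show every SNLD1 library above the naive libraries of its genotype, for Cyp51 in WT by a narrow margin. Cyp51 and Elovl6 show every Mettl14cKO library below the WT libraries of its condition.

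Apart from Idi1, no gene of the mevalonate arm passed the test with lesion. Hmgcs1, the cytosolic HMG-CoA synthase, stood at 1999.6, 1653 and 2404 CPM in the Mettl14cKO SNLD1 libraries, 1994, 1754 and 1855 in the Mettl14cKO naive ones, 2452, 3116 and 2673 in the WT SNLD1 ones and 2283, 2796 and 1874 in the WT naive ones. SNLD1 and naive libraries overlapped in both genotypes, and the difference of 0.18 (SE 0.12) had an adjusted p of 0.59 in edgeR's quasi-likelihood test with Benjamini-Hochberg adjustment. Mvk, mevalonate kinase, stood at 20.6, 19.7 and 23.4 CPM in the Mettl14cKO SNLD1 libraries, 14.3, 16.4 and 14.7 in the Mettl14cKO naive ones, 27.6, 15.2 and 30.0 in the WT SNLD1 ones and 26.6, 17.5 and 28.4 in the WT naive ones. Lesioned libraries lay above unlesioned ones in Mettl14cKO, whereas WT overlapped widely. Mvd, the mevalonate diphosphate decarboxylase, stood at 19.4, 27.1 and 15.3 CPM in the Mettl14cKO SNLD1 libraries, 18.8, 12.2 and 9.68 in the Mettl14cKO naive ones, 27.6, 21.7 and 25.4 in the WT SNLD1 ones and 25.7, 18.4 and 30.2 in the WT naive ones, with overlap in both genotypes. Differences over both genotypes were 0.24 for Mvk and 0.30 for Mvd, and neither passed (adjusted p 0.59 and 0.52). Among the members given by range, Pmvk (phosphomevalonate kinase), Fdps (farnesyl diphosphate synthase), Acat2 (acetyl-CoA acetyltransferase), Fdft1 (squalene synthase), Msmo1 (a sterol monooxygenase), Nsdhl (a sterol dehydrogenase), Ebp (a sterol isomerase) and Dhcr7 (which makes cholesterol from 7-dehydrocholesterol) had log2 differences between 0.16 and 0.34, none called. Tm7sf2, a sterol reductase, had 0.01.

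Star, the protein that moves cholesterol to the inner mitochondrial membrane, showed the largest lesion difference of any member. It stood at 9.41, 6.76 and 14.4 CPM in the Mettl14cKO SNLD1 libraries, 4.18, 7.68 and 6.95 in the Mettl14cKO naive ones, 28.2, 25.0 and 30.6 in the WT SNLD1 ones and 3.58, 4.91 and 6.01 in the WT naive ones. The lesioned and unlesioned Mettl14cKO libraries overlapped, while in WT every lesioned library lay far above every unlesioned one. In Mettl14cKO the difference with lesion was 0.71 on the log2 scale (SE 0.29, unadjusted p 0.0277, adjusted p 0.39 by edgeR's quasi-likelihood test with Benjamini-Hochberg adjustment). In WT Star rose by 2.52 (SE 0.28, 5.74-fold, adjusted p 3.9e-05), and over both genotypes it rose by 1.61 (SE 0.20, 3.06-fold, adjusted p 9.68e-05). Stard4, a soluble carrier of cholesterol, stood at 45.8, 51.6 and 46.2 CPM in the Mettl14cKO SNLD1 libraries, 20.6, 25.3 and 21.4 in the Mettl14cKO naive ones, 31.7, 44.5 and 36.0 in the WT SNLD1 ones and 26.3, 25.4 and 24.7 in the WT naive ones. Groups did not overlap in either genotype, and Mettl14cKO lesioned libraries were the highest of all. It rose by 1.10 with lesion in Mettl14cKO (SE 0.17, 2.14-fold, adjusted p 0.00232) and differed by 0.56 in WT (adjusted p 0.17). Over both genotypes it rose by 0.83 (SE 0.12, 1.77-fold, adjusted p 0.000376).

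Both exporters passed in a comparison with lesion, in opposite directions. Abca1, which loads cholesterol onto apolipoproteins, stood at 43.5, 56.8 and 49.0 CPM in the Mettl14cKO SNLD1 libraries, 43.5, 64.9 and 42.5 in the Mettl14cKO naive ones, 66.7, 73.9 and 83.0 in the WT SNLD1 ones and 42.8, 43.9 and 33.0 in the WT naive ones. The Mettl14cKO groups overlapped, while the lesioned WT libraries lay above all unlesioned ones. The difference was -0.01 in Mettl14cKO, and in WT Abca1 rose by 0.90 (SE 0.19, 1.87-fold, adjusted p 0.0218, edgeR quasi-likelihood test with Benjamini-Hochberg adjustment). Abcg1, which passes cholesterol to lipoprotein particles, stood at 23.8, 22.4 and 30.2 CPM in the Mettl14cKO SNLD1 libraries, 45.6, 28.1 and 40.6 in the Mettl14cKO naive ones, 33.3, 27.1 and 35.8 in the WT SNLD1 ones and 67.8, 40.9 and 54.7 in the WT naive ones. In Mettl14cKO, library 3 after lesion lay at 30.2 CPM, above naive library 2 at 28.1, and in WT every lesioned library lay below every unlesioned one. Over both genotypes Abcg1 fell by 0.68 on the log2 scale (SE 0.15, 0.626-fold, adjusted p 0.0201), with -0.58 in Mettl14cKO and -0.77 in WT, neither called alone.

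**Figure D2:**
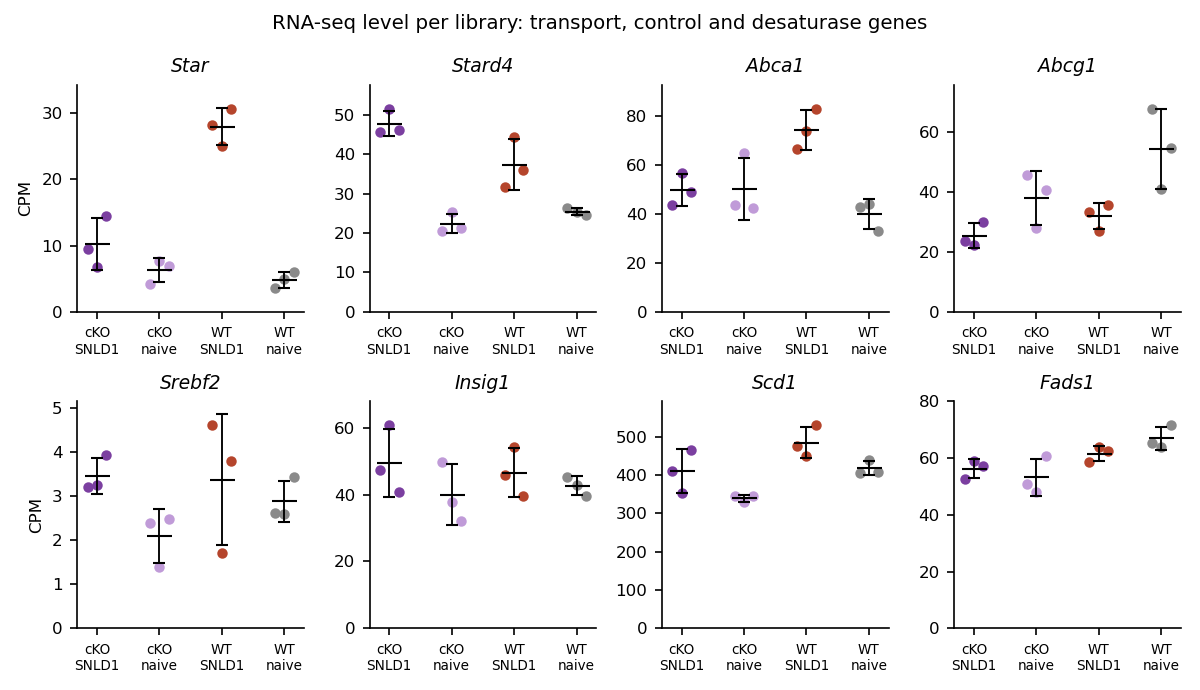
Level in CPM (vertical axes, linear and starting at 0) of 8 transport, control and fatty acid genes in each RNA-seq library, with groups from left to right Mettl14cKO SNLD1, Mettl14cKO naive, WT SNLD1 and WT naive; points are libraries and bars the mean ± SD (n = 3). Star shows the WT SNLD1 libraries at 28.2, 25.0 and 30.6 CPM above all others, Stard4 the SNLD1 libraries above the naive ones in both genotypes, and Abca1 the WT SNLD1 libraries above all others.

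No gene of the SREBP circuit passed the test with lesion. Insig1, which retains SCAP and is itself an SREBP target, stood at 47.2, 60.7 and 40.7 CPM in the Mettl14cKO SNLD1 libraries, 49.9, 37.9 and 32.2 in the Mettl14cKO naive ones, 45.8, 54.2 and 39.5 in the WT SNLD1 ones and 45.4, 42.8 and 39.7 in the WT naive ones. Insig2, its paralog, stood at 39.1, 45.1 and 36.3 CPM in the Mettl14cKO SNLD1 libraries, 44.1, 33.2 and 32.9 in the Mettl14cKO naive ones, 40.3, 39.7 and 44.5 in the WT SNLD1 ones and 35.4, 46.8 and 39.3 in the WT naive ones. Lesioned and unlesioned libraries overlapped in both genes and both genotypes. Srebf2, which encodes the SREBP that acts on cholesterol genes, stood at 3.197, 3.24 and 3.93 CPM in the Mettl14cKO SNLD1 libraries, 2.39, 1.40 and 2.48 in the Mettl14cKO naive ones, 4.599, 1.72 and 3.78 in the WT SNLD1 ones and 2.61, 2.59 and 3.42 in the WT naive ones. Srebf1, whose product acts mainly on fatty acid genes, stood at 2.84, 4.65 and 3.93 CPM in the Mettl14cKO SNLD1 libraries, 4.78, 2.44 and 4.84 in the Mettl14cKO naive ones, 4.45, 2.63 and 3.17 in the WT SNLD1 ones and 4.84, 3.0 and 6.61 in the WT naive ones. Srebf2 libraries separated in Mettl14cKO only, at a few CPM, and Srebf1 overlapped throughout. Scap, the sterol-sensing escort of the SREBP proteins, stood at 5.51, 6.62 and 4.07 CPM in the Mettl14cKO SNLD1 libraries, 9.86, 5.94 and 5.71 in the Mettl14cKO naive ones, 6.29, 4.57 and 4.39 in the WT SNLD1 ones and 5.61, 5.05 and 5.63 in the WT naive ones. Log2 differences over both genotypes ran from -0.31 for Srebf1 to 0.45 for Srebf2, and none of the 5 passed (adjusted p 0.51 to 0.84, edgeR quasi-likelihood test with Benjamini-Hochberg adjustment). These tests are of RNA, and the circuit is known to work by cutting the SREBP proteins.

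Within the fatty acid group no gene passed with lesion. Scd1, a stearoyl-CoA desaturase, stood at 411, 352 and 466 CPM in the Mettl14cKO SNLD1 libraries, 345, 328 and 344 in the Mettl14cKO naive ones, 475, 449 and 529 in the WT SNLD1 ones and 406, 440.0 and 408 in the WT naive ones, and every lesioned library lay above the unlesioned ones of its genotype, with a difference of 0.24 (adjusted p 0.28, edgeR quasi-likelihood test with Benjamini-Hochberg adjustment). Scd2, its close paralog, had -0.08, Fads1 (a fatty acid desaturase) -0.02, Elovl6 (an elongase of long-chain fatty acids) -0.05, Fasn (fatty acid synthase) 0.19 and Fads2 (another desaturase) 0.21. How reads shared by Scd1 and Scd2 were counted is not given in the sources used here, so their values are uncertain.

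Within Mettl14cKO, 1 member (Stard4) was called higher after lesion and 0 lower, where 0.624% and 0.0602% of all genes were called by edgeR's quasi-likelihood test with Benjamini-Hochberg adjustment. DESeq2 also called 1 higher and 0 lower. Unadjusted, 10 were higher and 1 lower, against 5.21% and 5.43% of all genes, and the groups did not overlap for 12 higher and 0 lower members, against 8.32% and 9.38%. Within WT, 3 members were called higher (Star, Hsd17b7 with 0.98, SE 0.18, adjusted p 0.0083, and Abca1) and 0 lower, against 0.948% and 0.0752% of all genes, and DESeq2 called 4 higher and 1 lower. Unadjusted, 8 members were higher and 1 lower, against 4.84% and 2.51%, and 10 higher and 1 lower members did not overlap, against 6.08% and 4.95%. Members above 0 numbered 27 in Mettl14cKO and 24 in WT, against 51.1% and 47.1% of all genes, and member medians were 0.27 and 0.21, against 0.01 and -0.01 over all genes. Over both genotypes at once, 6 members (Cyp51, Hsd17b7, Idi1, Sc5d, Scd1 and Stard4) had SNLD1 libraries that did not overlap the naive ones in either genotype, against 2.24% of all genes, and 0 had them lower, against 1.2%. For Cyp51 the WT groups were nearly level at their edges (202.66 CPM at SNLD1 and 202.53 CPM in naive).

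Several of these calls rested on single libraries. In edgeR's quasi-likelihood test with Benjamini-Hochberg adjustment, the WT call of Hsd17b7 was lost without WT SNLD1 library 3 (adjusted p 0.0794), WT naive library 1 (0.0556) or WT naive library 3 (0.0688), and that of Abca1 without the same libraries (0.152, 0.0791 and 0.159). Over both genotypes, Cyp51 was lost without Mettl14cKO SNLD1 library 1 (0.0638) or 2 (0.0539), Mettl14cKO naive library 3 (0.0739), WT SNLD1 library 2 (0.0565) or 3 (0.0808), or WT naive library 3 (0.0638). Sc5d was lost without Mettl14cKO SNLD1 library 1 (0.0516) or Mettl14cKO naive library 3 (0.0597), and Abcg1 without Mettl14cKO SNLD1 library 1 (0.0709) or 2 (0.0525), Mettl14cKO naive library 1 (0.0548) or WT naive library 1 (0.0782). Star, Stard4, Hsd17b7 and Idi1 passed over both genotypes without each library in turn, at adjusted p up to 0.0419. Without Mettl14cKO SNLD1 libraries 1 and 3, whose adipocyte marker sums stood apart, 3 members (Star, Stard4 and Hsd17b7) were called higher and 0 lower, with 1 Mettl14cKO SNLD1 library in the fit. The log2 differences of the other 4 were close to those with all libraries. Idi1 then had a log2 difference of 0.52 (adjusted p 0.0605), Sc5d 0.50 (0.0738), Cyp51 0.48 (0.0898) and Abcg1 -0.77 (0.0598). Without library 2 of WT SNLD1 and WT naive, whose neutrophil marker sums stood apart, 5 members were called higher and 1 lower over both genotypes and 2 higher in WT. The share of all genes called in that fit is not given here. The calls lost were Cyp51 over both genotypes (0.43, adjusted p 0.0623) and Abca1 in WT (0.98, 0.0681).

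The next question was which members differed between genotypes. Over both conditions 3 members fell in Mettl14cKO and none rose: Cyp51 and Sqle, enzymes between squalene and cholesterol, and the elongase Elovl6. By edgeR's quasi-likelihood test with Benjamini-Hochberg adjustment, 1.29% of all genes were called lower and 2.04% higher. Unadjusted, 15 members were lower and 0 higher, against 7.79% and 9.19% of all genes. In all, 30 of 33 members lay below 0 and 3 above, where 49.7% of all genes lay above, and the member median log2 difference was -0.23 against 0.00. All 7 mevalonate genes, 10 of 11 from squalene to cholesterol and all 6 fatty acid genes lay below 0, with medians of -0.28, -0.24 and -0.30. The SREBP control genes had a median of -0.04. Libraries of Mettl14cKO lay below those of WT with no overlap in both conditions for 3 members (Cyp51, Elovl6 and Nsdhl), against 1.32% of all genes, and for 0 above, against 2.22%. The sums of sensory neuron markers were also lower in all Mettl14cKO libraries. Sums of 9 fibroblast markers went the other way. They were 2745 to 4446 CPM in Mettl14cKO SNLD1 and 1818 to 2346 CPM in WT SNLD1, with no overlap. In naive ganglia they were 2073 to 3557 CPM in Mettl14cKO and 1847 to 2090 CPM in WT, with overlap. Sums of 11 satellite glia markers were 2528 to 2649 CPM in Mettl14cKO SNLD1 and 3011 to 4319 CPM in WT SNLD1, with no overlap, and 2587 to 4055 CPM in Mettl14cKO naive and 3266 to 4286 CPM in WT naive, with overlap. Their part in the result was not tested.

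For Cyp51, the libraries given above averaged 178 ± 7.25 CPM in Mettl14cKO SNLD1 and 125 ± 4.96 in Mettl14cKO naive, against 243 ± 35.6 in WT SNLD1 and 184 ± 22.6 in WT naive (SD, n = 3 each). It fell by 0.50 in Mettl14cKO (SE 0.11, 0.705-fold, adjusted p 0.0119 by edgeR's quasi-likelihood test with Benjamini-Hochberg adjustment), with -0.45 at SNLD1 and -0.56 in naive ganglia. Elovl6 stood at 58.1, 57.2 and 63.7 CPM in the Mettl14cKO SNLD1 libraries, 71.4, 54.5 and 65.1 in the Mettl14cKO naive ones, 77.0, 95.4 and 97.0 in the WT SNLD1 ones and 104, 89.5 and 76.8 in the WT naive ones. Its Mettl14cKO libraries lay below all WT libraries of the same condition, and it fell by 0.55 (SE 0.12, 0.685-fold, adjusted p 0.0128), with -0.59 at SNLD1 and -0.50 in naive ganglia. Elovl6 lies on chromosome 3, 6.16 Mb from Mettl14, and whether that position bears on its level was not tested. Sqle averaged 307 ± 32.0 CPM in Mettl14cKO SNLD1 and 237 ± 27.6 in Mettl14cKO naive, against 433 ± 100.4 in WT SNLD1 and 330.5 ± 37.2 in WT naive. It fell by 0.49 (SE 0.12, 0.713-fold, adjusted p 0.0359), and WT SNLD1 library 2 lay within the range of Mettl14cKO SNLD1.

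Cyp51 and Elovl6 passed over both conditions without each library in turn (edgeR quasi-likelihood test, Benjamini-Hochberg adjusted p up to 0.0478 and 0.0461). Sqle was lost without Mettl14cKO SNLD1 library 1 (0.110) or 2 (0.0777), Mettl14cKO naive library 2 (0.104), WT SNLD1 library 1 (0.067) or 3 (0.114), or WT naive library 1 (0.102) or 3 (0.0623). Without both Mettl14cKO SNLD1 libraries with high adipocyte marker sums, which leaves 1 library in that group, 0 members were called lower, although the log2 differences were of like size, with -0.48 for Cyp51 (adjusted p 0.0914), -0.58 for Elovl6 (0.0633) and -0.54 for Sqle (0.0905). Without the WT libraries with high neutrophil marker sums, 7 were called lower, among them Fads2 (-1.07, adjusted p 0.0366) and Mvd (-0.71, 0.0459). How many of all genes were called in that fit is not given here, so the higher count cannot be read as particular to the members.

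Nsdhl, the third gene with no overlap in either condition, averaged 183 ± 12.5 CPM in Mettl14cKO SNLD1 and 164 ± 8.08 in Mettl14cKO naive, against 224 ± 13.7 in WT SNLD1 and 199 ± 22.1 in WT naive (SD, n = 3 each). Its difference of -0.28 did not pass. Members with the next smallest p over both conditions were Fads2, Mvd and Hmgcs1. Fads2 stood at 1.60, 1.69 and 2.67 CPM in the Mettl14cKO SNLD1 libraries, 2.09, 1.05 and 2.36 in the Mettl14cKO naive ones, 4.75, 2.63 and 4.76 in the WT SNLD1 ones and 2.90, 2.45 and 4.10 in the WT naive ones. At SNLD1 the highest Mettl14cKO library passed the lowest WT one, and in naive ganglia all Mettl14cKO libraries lay below all WT libraries. Its difference of -0.89 (SE 0.27) had an adjusted p of 0.089 in edgeR's quasi-likelihood test with Benjamini-Hochberg adjustment. Mvd differed by -0.58 (SE 0.18, adjusted p 0.098) and passed without Mettl14cKO naive library 1 (adjusted p 0.0291). Hmgcs1 differed by -0.38 (SE 0.12, adjusted p 0.11) and passed without Mettl14cKO SNLD1 library 3 (0.0489).

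At SNLD1 alone, 1 member was called lower (Star) and 0 higher by edgeR's quasi-likelihood test with Benjamini-Hochberg adjustment, where 0.512% of all genes were called lower and 0.948% higher. DESeq2 called 2 lower. Unadjusted, 9 members were lower and 1 (Stard4, 0.35) higher, against 6.91% and 7.46%, and 11 lower and 1 higher members did not overlap, against 10.3% and 9.66%. In naive ganglia alone, 0 members were called in either direction, where 0.113% of all genes were called lower and 0.173% higher. Unadjusted, 8 members were lower (Cyp51, Mvd, Elovl6, Mvk, Sqle, Abcg1, Fads1 and Scd1) and 0 higher, against 3.27% and 4.33% of all genes, and 9 lower and 1 higher members did not overlap, against 4.65% and 6.11%. DESeq2 called 1 lower (Cyp51) and 0 higher. Among the naive differences were -0.88 for Mvd (adjusted p 0.30), -0.77 for Fads2 (0.68), -0.68 for Mvk (0.43) and -0.56 for Cyp51 (0.23). Members below 0 numbered 27 at SNLD1 and 30 in naive ganglia, where 50.5% and 50.6% of all genes lay above 0, and member medians were -0.21 and -0.24, against 0.00 over all genes in both.

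Star at SNLD1 averaged 10.2 ± 3.90 CPM in Mettl14cKO and 28.0 ± 2.80 CPM in WT (SD, n = 3 each), with no overlap. It fell by 1.45 on the log2 scale in Mettl14cKO (SE 0.27, 0.366-fold, adjusted p 0.0135 by edgeR's quasi-likelihood test with Benjamini-Hochberg adjustment). The call was lost without Mettl14cKO SNLD1 library 1 (adjusted p 0.0868) or 2 (0.0575) or without WT SNLD1 library 3 (0.0658). Without both Mettl14cKO SNLD1 libraries with high adipocyte marker sums the difference was -2.04, a value that rests on Mettl14cKO SNLD1 library 2 alone against 3 WT libraries, with the spread taken from the other groups (adjusted p 0.0242). In naive ganglia Star averaged 6.27 ± 1.84 CPM in Mettl14cKO and 4.83 ± 1.22 CPM in WT, a difference of 0.37 (adjusted p 0.89).

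Whether the lesion effect itself differed between genotypes was tested as the Mettl14cKO effect minus the WT effect. No member passed, and neither did any gene (0% called higher and 0% lower by edgeR's quasi-likelihood test with Benjamini-Hochberg adjustment). DESeq2 called 0 members and, over all genes, 0 higher and 3 lower. At an unadjusted p under 0.05, 1 member was higher and 2 were lower, against 1.51% and 2.19% of all genes. Star had the smallest p, with a difference of effects of -1.81 (SE 0.41, unadjusted p 0.000312, adjusted p 0.83), followed by Abca1 with -0.91 (SE 0.27, unadjusted p 0.00301, adjusted p 0.998) and Stard4 with 0.54 (SE 0.24, unadjusted p 0.0347). Mvd had 0.61, Mvk 0.49 and Hsd17b7 -0.38, none with an unadjusted p under 0.05. The member median was 0.00 and that of all genes 0.01, and the median SE of a gene was 0.340. With no filter on low counts Star passed (-1.82, adjusted p 0.00289 by edgeR's quasi-likelihood test). Its log2 difference was nearly the same as with the filter while its unadjusted p fell to 1.09e-06, so it was the estimated error that changed. The share of all genes called without the filter is not given here.

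The lesion and genotype differences ran in opposite directions for most members. Of the 33, 25 (75.8%) lay above 0 with lesion and below 0 with the knockout, against 2860 of 13291 genes (21.5%). The 8 others were Abcg1, Elovl6, Fads1, Lss, Scap, Scd2, Srebf1 and Stard4. Both differences come from the same 12 libraries, and the list was proposed for this pattern, so the count is a description with no test. Cyp51 was the member called in both, with 0.45 after lesion and -0.50 with the knockout.

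**Figure D3:**
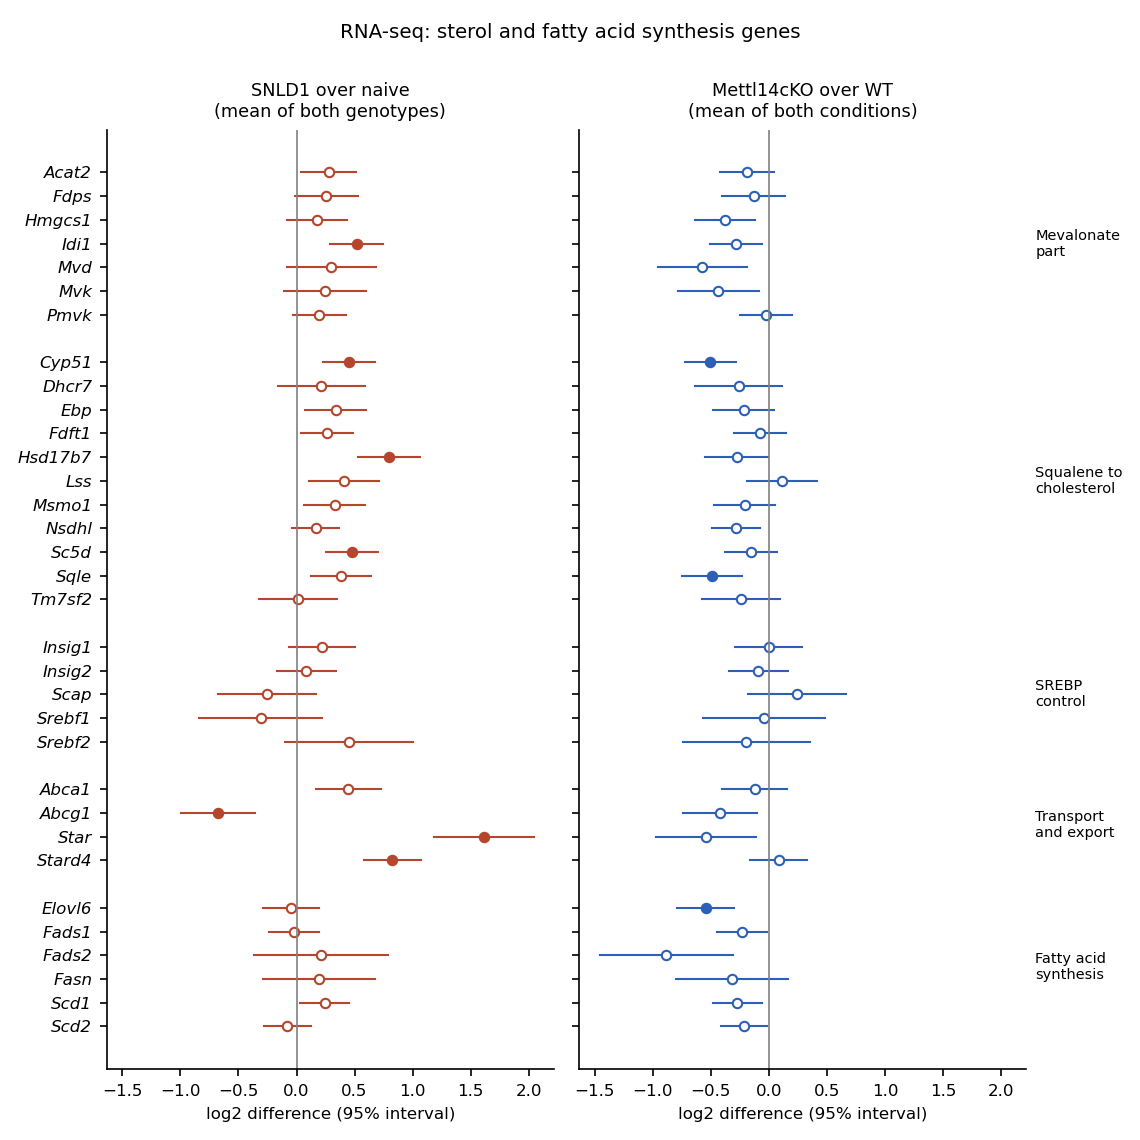
Log2 difference (horizontal axes) of each member, by role, for SNLD1 over naive as the mean of both genotypes (left) and Mettl14cKO over WT as the mean of both conditions (right); lines are 95% confidence intervals and filled points have an adjusted p under 0.05. On the left 27 of 33 members lie above 0 and on the right 30 of 33 lie below it.

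A wider list of 71 other genes of sterol and fatty acid metabolism, 63 of them tested, had medians nearer 0. Its median was 0.08 with lesion over both genotypes and -0.11 with the knockout over both conditions, against member medians of 0.24 and -0.23. Because the members were proposed for these shifts, a list without them can lie nearer 0 through that choice alone. By edgeR's quasi-likelihood test with Benjamini-Hochberg adjustment, 2 of the 63 were higher and 1 lower with lesion over both genotypes. Among them were Acsl4 (0.57, adjusted p 0.0058), which activates polyunsaturated fatty acids, and Ppargc1a (-0.45, adjusted p 0.0455), a coactivator of mitochondrial genes. The other gene called higher belongs to sterol synthesis and uptake. With the knockout, 1 was higher (Apod, a lipid-binding apolipoprotein, 0.97, adjusted p 0.00468) and 4 were lower. These 4 were Me1 (-0.50, 0.0184), which makes NADPH for lipid synthesis, Gramd1b (-0.73, 0.0286), a sterol carrier of membrane contact sites, Elovl5 (-0.42, 0.0356), an elongase of polyunsaturated fatty acids, and Ugt8a (-0.80, 0.0418), which makes the galactolipids of myelin.

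m6A was first read from MeRIP-seq in wild-type ganglia. Relative to input, pulldown libraries held less RNA of most of these genes. No difference passed the test unless the replicate number was added to the fit or IP library 3 was left out. The libraries held between 846785 and 19653733 counts, enrichment is relative because totals of IP and input libraries carry no absolute scale, and the median SE of a gene's log2 ratio was 1.09 at SNLD1 and 1.08 in naive ganglia. These SE values are those of the fit without a replicate block. At SNLD1, 27 of 33 members lay below 0 (52.7% of all genes lay above) with a median of -0.72 against 0.10 for all genes, and in naive ganglia 24 lay below (51.8% of all genes above) with a median of -0.61 against 0.07. By edgeR's quasi-likelihood test with Benjamini-Hochberg adjustment, 0 members were called, as was no gene (0% in each direction and condition). In counts simulated at this spread for the naive comparison, the test did not recover the changed genes, so a lack of calls says little. IP libraries of the same number deviated together across conditions. With the replicate number as a block, 4 members (Fdps, Hmgcs1, Scd1 and Scd2) were called lower in each condition. The share of all genes called lower was 6.07% at SNLD1 and 7% in naive ganglia. IP library 3 has no input of its number, so in that fit the mean ratio of IP over input rests on libraries 1 and 2. The block also takes IP and input of the same number to shift together, which they did not (correlations -0.29 to -0.02). DESeq2 called 0 members and, over all genes, 0 at SNLD1 and 2 higher and 3 lower in naive ganglia. Unadjusted, 1 member was lower and 0 higher at SNLD1, against 2.49% and 1.65% of all genes, and 6 lower and 0 higher in naive ganglia, against 3.79% and 2.43%. With no overlap, 9 were lower and 1 higher at SNLD1, against 12.1% and 10.3%, and 13 lower and 1 higher in naive ganglia, against 16.5% and 12.7%.

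Scd1 had the smallest p of the members in both conditions. It stood at 132, 103 and 282 CPM in IP and 1072 and 744 in input at SNLD1, and at 153, 131 and 261 in IP and 1153 and 825 in input of naive ganglia. Every IP library lay below every input. The log2 ratios of IP over input were -2.40 at SNLD1 (SE 0.79, unadjusted p 0.00762) and -2.45 in naive ganglia (SE 0.79, unadjusted p 0.00671), with adjusted p of 0.79 and 0.71 by edgeR's quasi-likelihood test with Benjamini-Hochberg adjustment. With the replicate block they were -2.87 at SNLD1 (adjusted p 0.00824) and -2.85 in naive ganglia (adjusted p 0.00633). Scd2 showed 490.3, 269 and 632 in IP and 1735 and 1197 in input at SNLD1, and 519, 284 and 600.4 in IP and 2003 and 1003 in input of naive ganglia, also with every IP library lower. Elovl6 lay the other way, at 190.4, 107 and 97.3 in IP and 82.0 and 59.2 in input at SNLD1, and 247, 185 and 93.8 in IP and 89.5 and 127 in input of naive ganglia. Its IP libraries lay above both inputs at SNLD1 but overlapped them in naive ganglia.

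IP library 3 of both conditions stood apart in several members. Fdps was at 90.02, 149.9 and 1336 CPM in IP and 739 and 853 in input at SNLD1, and 52.5, 73.5 and 947 in IP and 704 and 392 in input of naive ganglia. Idi1 was at 29.7, 19.2 and 353 in IP and 149.8 and 18.2 in input at SNLD1, and 16.7, 22.6 and 255 in IP and 108 and 30.6 in input of naive ganglia. The third IP library is the highest in each case. Without IP library 3 of either condition the naive median was -1.02 and 1 member was called lower in naive ganglia.

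**Figure D4:**
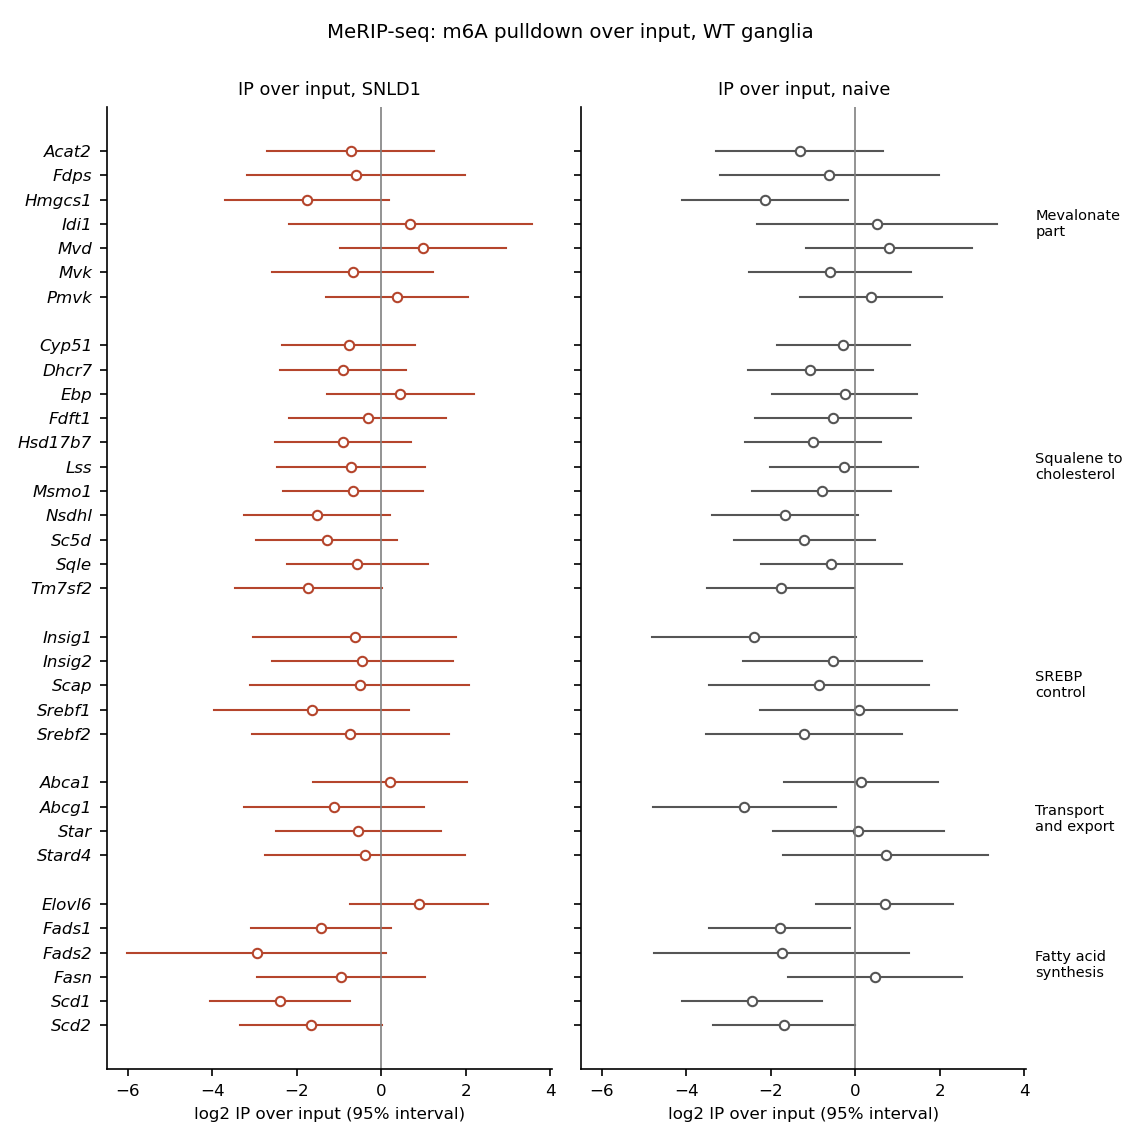
Log2 ratio of IP over input (horizontal axes) of each member at SNLD1 (left) and in naive ganglia (right), by role; lines are 95% confidence intervals of the edgeR fit. Most points lie left of 0 with wide intervals, with Scd1 at -2.40 and -2.45, and no member has an adjusted p under 0.05 in this fit, which has no replicate block.

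The change of IP over input with lesion was small beside its error. Of the members, 24 lay above 0 and 9 below with a median of 0.09, against 0.05 over all genes, the median SE of a gene was 1.51, and 0 members had even an unadjusted p under 0.05, where 0.15% of all genes were higher and 0.0544% lower and 52.9% lay above 0. No gene was called by edgeR's quasi-likelihood test with Benjamini-Hochberg adjustment (0%), nor by DESeq2. The inputs are also RNA libraries of lesioned and unlesioned wild-type ganglia. Star stood in them at 47.6 and 20.6 CPM at SNLD1 and 3.48 and 8.60 CPM in naive ganglia, with no overlap and a log2 difference of 2.48 (unadjusted p 0.0351, adjusted p 1). Stard4 stood at 53.5 and 44.6 at SNLD1 and 27.2 and 18.0 in naive ganglia, also without overlap. The other members called with lesion in RNA-seq (Hsd17b7, Idi1, Sc5d, Cyp51, Abca1 and Abcg1) all overlapped between SNLD1 and naive inputs. Hsd17b7, for example, stood at 398 and 132 CPM at SNLD1 and 226 and 101 CPM in naive ganglia. Of the members, 19 lay above 0 (47.1% of all genes did), and 5 were higher and 1 lower with no overlap, against 6.17% and 13.8% of all genes. Called by the test were 0 members and 0% of all genes, with 0 members by DESeq2, and 1 member was higher and 0 lower at an unadjusted p under 0.05, against 0.401% and 0.456%.

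The miCLIP lists placed sites within 25 of the 33 genes (75.8%), against 44.3% of the 12703 tested genes that had a span in the gene table. Sites were assigned to whole gene spans of GRCm38.p6, without exons. The 8 genes with no listed site were Idi1, Cyp51, Tm7sf2, Nsdhl, Insig2, Srebf1, Star and Fads1, and a site is listed only where reads covered it. There were 82 sites after lesion and 63 in naive ganglia, of which 14 were at the same base and strand, making 131 distinct sites. The ratio of 1.30 sites after lesion per naive site equals that of all genes (1.30), and with 1 library per condition no test was made. In 9 genes the strand of the gene was not known from the tables, and sites on either strand were taken.

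Fasn held the most sites, 12 after lesion and 10 in naive ganglia, followed by Srebf2 with 8 and 5. Hmgcs1 had 6 and 3, Scd2 6 and 2, Pmvk 5 and 4, and Mvk 4 and 7. The sites of 6 genes were listed after lesion and not in naive ganglia, with 5 in Dhcr7, 3 each in Stard4 and Elovl6 and 2 each in Fdps, Hsd17b7 and Ebp. Those of 4 genes were listed in naive ganglia and not after lesion, with 5 in Scap, 2 in Abca1 and 1 each in Lss and Sc5d. These counts are small, and the lists as a whole differ in length (18677 sites after lesion and 14446 in naive ganglia). Both lists rest on shallow evidence, with a median of 4 reads per site and 1 mutated read at 89.7% of sites after lesion and 90.2% in naive ganglia.

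The sites best covered by mutated reads lay in Sqle, and the 5 bases around each are shown with the modified adenosine in capitals. After lesion, chr15:59317872 in ggAcc had 3 mutated of 7 reads (42.9%, 95% Clopper-Pearson interval 9.90 to 81.6%, counting error only). In naive ganglia, chr15:59315146 in ggAcc had 4 of 10 (40.0%, 12.2 to 73.8%). Both intervals span most of the range, so the shares cannot be ranked. Over the 131 distinct sites, agAcc was at 21 (16.0%, against 9.98% of 29291 distinct sites in all), ggAcc at 18 (13.7%, against 15.6%) and gaAct at 10 (7.63%, against 3.49%). All 131 sites hold the A followed by C of the known m6A consensus, so holding it does not set these 3 motifs apart.

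**Figure D5:**
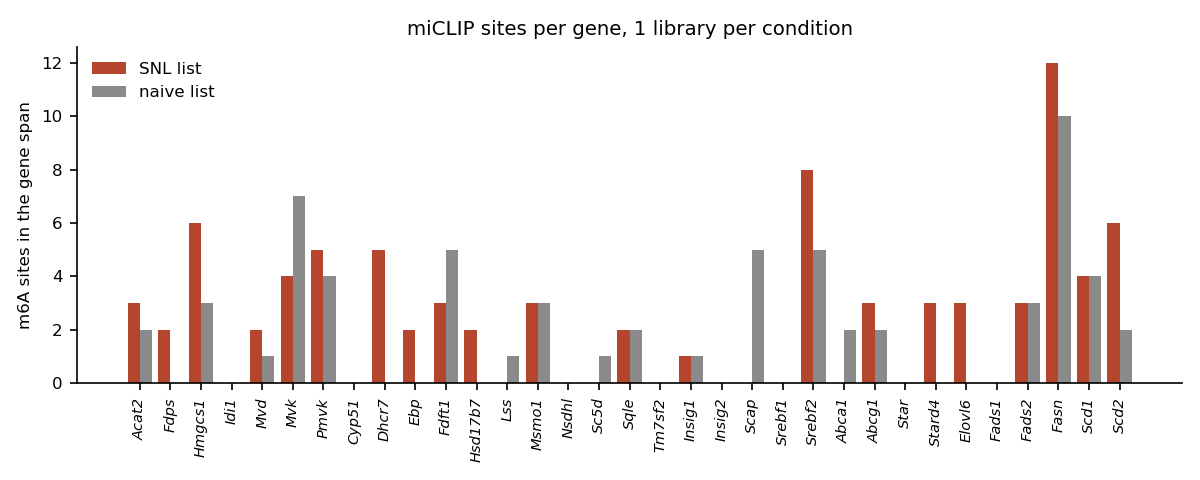
Number of miCLIP sites (vertical axis, starting at 0) within the span of each member (horizontal axis, by role) after lesion (SNL, left bars) and in naive ganglia (right bars), 1 library each. Fasn shows the most sites with 12 and 10, and 8 members show none in either list.

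Fasn and Srebf2, with the most sites, were called in no RNA comparison. Of the 10 members called in any RNA-seq comparison, Idi1, Cyp51 and Star held no site, and Stard4, Hsd17b7, Sc5d, Abca1, Abcg1, Elovl6 and Sqle held between 1 and 5. The knockout was not assayed by MeRIP-seq or miCLIP in the data used here.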

How the data were processed

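RNA-seq and MeRIP-seq tables were deposited by the authors as raw counts per gene symbol. The miCLIP lists were deposited with a value per site of unit other, a score equal to the share of mutated reads. Per the labels' protocols, poly(A) RNA went into Smart-seq2 libraries, and the submitters' processing notes name Trimmomatic, STAR, DESeq2 and mm10. No source used here gives the counter or the site caller.

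The counts were fitted with edgeR 4.0.16 under R 4.3.3 (filterByExpr, TMM, quasi-likelihood fit of all 12 RNA-seq or all 10 MeRIP-seq libraries, Benjamini-Hochberg over all genes tested, called at an adjusted p under 0.05). Alternatives were DESeq2 1.42.0, its size factors, no filter, a replicate block, a fit of the compared groups alone and leaving out each library. The scripts were tested on simulated data. At the spread of the MeRIP-seq libraries, the test of IP over input did not recover the changed genes. Site and promoter tables were joined in Python 3.11.15 with pandas 2.3.3, scipy 1.17.1 gave the intervals, and matplotlib 3.10.9 the figures. The plan asked for exons, and gene spans were used because no exon annotation was used here. IP libraries of SNLD1 and naive with the same number deviated together (correlations 0.47 to 0.73), and those of IP and input did not (-0.29 to -0.02).

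The members and gene lists were chosen with earlier results of these data known. Values in every library were given for members called in an RNA-seq comparison, for the 6 of smallest p in each and for 5 SREBP genes. Members shown for MeRIP-seq and sites were chosen after their values were seen.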

Additional observations from a re-analysis of the deposited data

How the results depend on the processing

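Except where a share is printed, the number of all genes called in each alternative fit is not given here, so a changed count of members may be general. Called lower with lesion in WT was 1 member instead of 0 by DESeq2, with no filter and with a replicate block. Called lower in the knockout at SNLD1 were 2 instead of 1 by DESeq2, and in naive ganglia 1 instead of 0 by DESeq2 and with no filter. With no filter, 6 members were called lower in the knockout over both conditions, and 1 (Star) in the difference of lesion effects. With the replicate block, IP over input called 4 members lower in each condition (Fdps, Hmgcs1, Scd1 and Scd2, against 6.07% of all genes at SNLD1 and 7% in naive ganglia), with medians of -1.09 at SNLD1 and -1.19 in naive ganglia, and 0 in the change with lesion. The mean ratio in that fit rests on IP libraries 1 and 2, since IP library 3 has no input of its number. With IP libraries 1 and 2 and their inputs as pairs the medians were -1.14 at SNLD1 and -1.03 in naive ganglia. Correlations between RNA-seq libraries of the same number ran from -0.06 to 0.57. The highest were 0.57 for library 2 of WT SNLD1 and WT naive and 0.35 for library 3 of Mettl14cKO SNLD1 and Mettl14cKO naive. With the replicate block, edgeR's quasi-likelihood test also called Idi1 (0.60, adjusted p 0.0347) and Abcg1 (-0.75, adjusted p 0.0322) with lesion in WT. Requiring 3 mutated reads left 1 site after lesion, 1 in naive ganglia, 0 shared and 1 gene.

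Alternatives chosen after seeing the data were 3. Without IP library 3, 1 member was called lower in naive ganglia and the median was -1.02. Without Mettl14cKO SNLD1 libraries 1 and 3, which leaves 1 library in that group, 3 members were higher and 0 lower with lesion over both genotypes, and 0 lower in the knockout over both conditions. Without library 2 of WT SNLD1 and WT naive, 7 were lower in the knockout over both conditions.

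Leaving out 1 library at a time, members called higher with lesion were 1 in Mettl14cKO, 1 to 3 in WT and 4 to 7 over both genotypes, with 0 to 1 lower in WT and over both genotypes. Called lower in the knockout were 0 to 1 at SNLD1 and 2 to 4 over both conditions. Over all genes, 74 to 191 were then called lower in the knockout over both conditions. With lesion over both genotypes, 193 to 300 of all genes were called higher and 17 to 92 lower. Medians ran from -0.999 to -0.45 for IP over input at SNLD1, from -1.02 to -0.43 in naive ganglia and from -0.27 to 0.27 for its change. Signs were followed for some members only, in RNA-seq those called and the 6 of smallest p and in MeRIP-seq the 3 of smallest p. Members with larger p, which can lie near 0, were not followed. Among those followed, reversals were found only in MeRIP-seq. The change of IP over input ran from -1.32 (without naive input library 2) to 2.78 for Insig1 and from -0.64 (without the same library) to 3.30 for Abcg1. The input difference of Fasn ran from -0.998 (without SNLD1 input library 2) to 3.22. The cause was not tested. Small libraries (naive IP library 2 with 846785 counts, SNLD1 input library 1 with 927807 and SNLD1 IP library 2 with 1534778) limit the MeRIP-seq values, and 3 libraries a group limit the RNA-seq ones.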
